A study of Homo sapiens with 6 samples.

Results

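*NFKB1*, *NFKB2*, *RELA*, *RELB* and *REL*, which encode the 5 subunits of the transcription factor NF-kB, were followed together with 5 genes known as its targets, *NFKBIA*, *NFKBIE*, *TNFAIP2*, *TNFAIP3* and *BIRC3*, in MDA-MB-453 cells after depletion of *DUSP6*. The 10 genes were taken by symbol, and all 10 were among the 22807 genes of the deposited table. MDA-MB-453 is an established HER2+ breast cancer cell line that was grown in RPMI with serum. RNA was sequenced from 3 libraries of cells transfected with *DUSP6* siRNA and from 3 libraries of cells transfected with scrambled siRNA, and no drug is named for either group. *DUSP6* encodes a phosphatase that removes phosphate from ERK kinases. The cells are labelled wild type in both groups. The siRNAs within a group differed from each other, the labels do not tie an siRNA to a library, and the 3 libraries of each group entered the fit as replicates. Different siRNAs imply separate transfections, but nothing in the labels says that these used separately grown cells. The p-values therefore measure only the spread between these libraries, which includes differences between the siRNAs of a group.

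NF-kB subunits act as dimers, and in resting cells inhibitor proteins of the IkB family hold them in the cytoplasm. In the canonical arm, receptors for tumor necrosis factor, interleukin 1 or double-stranded RNA activate the IKK kinase complex, which marks the inhibitors for degradation and frees dimers of RELA, REL and the short product of *NFKB1*. In the noncanonical arm, the kinase encoded by *MAP3K14* drives the processing of the *NFKB2* product, which pairs with RELB. NF-kB induces several of its own subunits and inhibitors, so that the levels of their mRNAs form a feedback loop. In epithelial cells the pathway is known for its part in inflammation, antiviral defense and survival.

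The promoters of these genes are shown because the feedback loop runs through them. RefSeq promoter windows on GRCh38.p14, which reach from 250 bases before to 50 bases after a start site, were matched by gene ID for 8 of the 10 genes, and several genes had more than 1 start site. *RELB* and *NFKBIE* were not analysed here for promoter sequence. The windows were searched on both strands for the kappa B consensus, the decamer that NF-kB dimers bind, and matches on the 2 strands can overlap because the consensus is nearly its own reverse complement. Of the 8 genes, 6 held a match in at least 1 window, against 13.3% of all 27305 genes with a window and 16.7% of the tested genes with a window. Counted by window, 7 of 12 held a match, against 11.3% of all windows. The genes were chosen as subunits and known targets of NF-kB, so these shares describe the choice and are no result of the libraries. A match is a description of the letters and not a measured binding site. The stretches below are read 5′ to 3′ on the strand of the gene, with the matches in capitals. They stand for the gene that rose most (*TNFAIP3*), for 3 others that rose (*NFKB1*, *NFKB2* and *BIRC3*) and for the classical inhibitor gene that was not called (*NFKBIA*).
*TNFAIP3*, plus strand, chr6:137867094-137867213: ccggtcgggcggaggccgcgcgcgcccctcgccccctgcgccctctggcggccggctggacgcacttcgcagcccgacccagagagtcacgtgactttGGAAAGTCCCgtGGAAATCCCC
*NFKB1*, plus strand, chr4:102501210-102501329: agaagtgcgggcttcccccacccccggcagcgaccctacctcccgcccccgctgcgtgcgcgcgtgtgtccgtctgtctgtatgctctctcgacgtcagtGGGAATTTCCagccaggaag
*NFKB2*, start site 3, plus strand, chr10:102395574-102395693: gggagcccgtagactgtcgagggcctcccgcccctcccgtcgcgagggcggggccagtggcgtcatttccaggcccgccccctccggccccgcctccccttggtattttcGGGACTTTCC
*BIRC3*, plus strand, chr11:102317264-102317383: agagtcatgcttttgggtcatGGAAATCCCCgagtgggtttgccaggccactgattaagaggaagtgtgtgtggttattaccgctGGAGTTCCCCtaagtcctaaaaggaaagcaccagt
*NFKBIA*, minus strand, chr14:35404796-35404915: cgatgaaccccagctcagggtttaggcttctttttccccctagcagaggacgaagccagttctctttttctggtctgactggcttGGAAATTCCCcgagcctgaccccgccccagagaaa

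In *TNFAIP3* the matches lay at -67 and -55 from the start site, counted at their first base, and in *BIRC3* at -199 and -135. *NFKB1* had a single match at -49 of its first start site, GGGAATTTCC, and *NFKBIA* a single match at -81. Start sites 2 and 3 of *NFKB2* each had matches, and those of *REL* lay at -47 and -46 on opposite strands. The windows of *RELA* and *TNFAIP2* held no match.

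**Figure D1:**
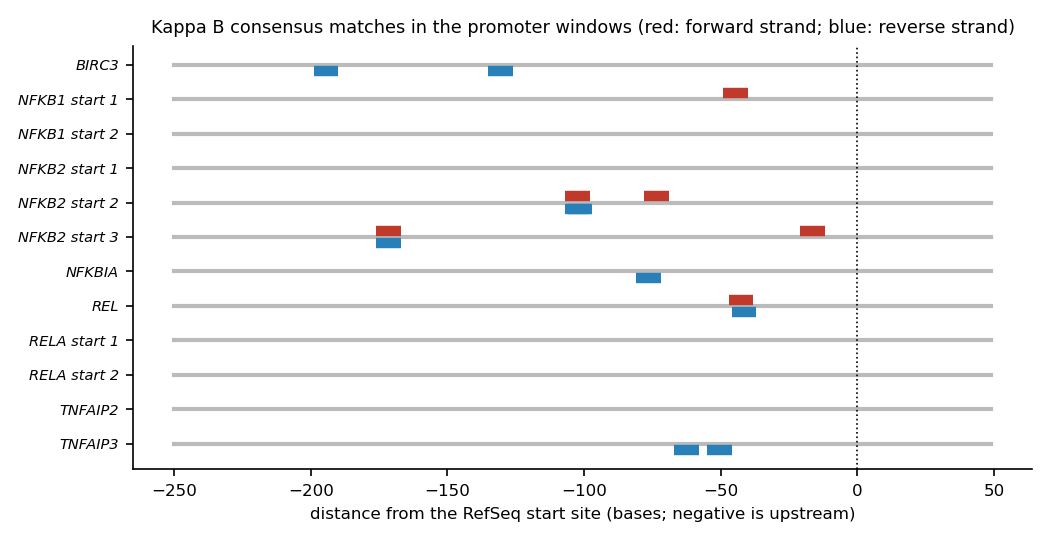
Positions of kappa B consensus matches in the RefSeq promoter windows of 8 genes, with the distance from each start site in bases on the x axis and 1 line per start site. Red bars are matches on the strand of the gene and blue bars matches on the opposite strand, and 6 of the 8 genes carry at least 1 bar.

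The deposited values are reads relative to a scaled library size, called normalized values here, and the reads recovered from them numbered 45546981 to 85729785 per library. A single read was worth a value of 0.0121 to 0.0202. Fold changes were tested with limma on log2(value + 1) in the 12862 genes whose mean value over all 6 libraries reached 1. A call is an adjusted p under 0.05. The level of *DUSP6* was 110 to 209 with scrambled siRNA and 24.5 to 39.4 with *DUSP6* siRNA, so the groups moved in the direction their labels give. The 11 markers of the line, among them *ERBB2*, *FOXA1* and *KRT8*, were all above the filter, and 8 of them fell, with *ERBB2* at 984 ± 94.3 (SD, n = 3) against 495 ± 33.6 (SD, n = 3). The summed value of the 11 was 4684 to 6242 with scrambled siRNA and 3409 to 3657 with *DUSP6* siRNA. Of 12 markers of blood, endothelial and stromal cells, 2 passed the filter, *CD68* and *COL1A1*, and the leukocyte marker *PTPRC* was at 0.0809 or less in every library. *COL1A1*, a collagen gene, rose from 92.2 ± 12.2 to 173 ± 16.7 (SD, n = 3 each), and it made up most of the summed value of the 9 markers in the table, which was 86.5 to 112 with scrambled siRNA and 168 to 198 with *DUSP6* siRNA. *CD68* was not called, at 5.00 ± 0.525 and 4.53 ± 1.03 (SD, n = 3 each), and the 7 markers under the filter had group means of 0.248 or less. The part of *COL1A1* and of the markers of the line in the results was not tested. Fewer cells of a type and less RNA per cell cannot be told apart in such bulk libraries.

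Of the 10 genes, 9 passed the filter. With *DUSP6* siRNA, 5 of the 9 were higher, 0 were lower and 4 were not called, while 19.7% of all genes tested were called higher and 24.7% lower. The median log2 fold change of the 9 was 0.39, against -0.01 for all genes tested. *TNFAIP3*, *RELB*, *NFKB1*, *NFKB2* and *BIRC3* rose, in that order of size, while *RELA* and *NFKBIA* were not called and their groups overlapped. For 7 of the 9 genes every *DUSP6* siRNA library lay above every scrambled siRNA library, as it did for 26.7% of all genes tested, and no gene of the 9 showed the reverse, as 31.1% of all genes did. With edgeR on the recovered reads, 6 of the 9 were higher and 0 lower, against a background of 21.5% higher and 23.1% lower, and the additional gene was *REL*. Without *DUSP6* siRNA replicate 3, 3 were called higher, since the calls of *NFKB2* and *BIRC3* were lost.

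**Figure D2:**
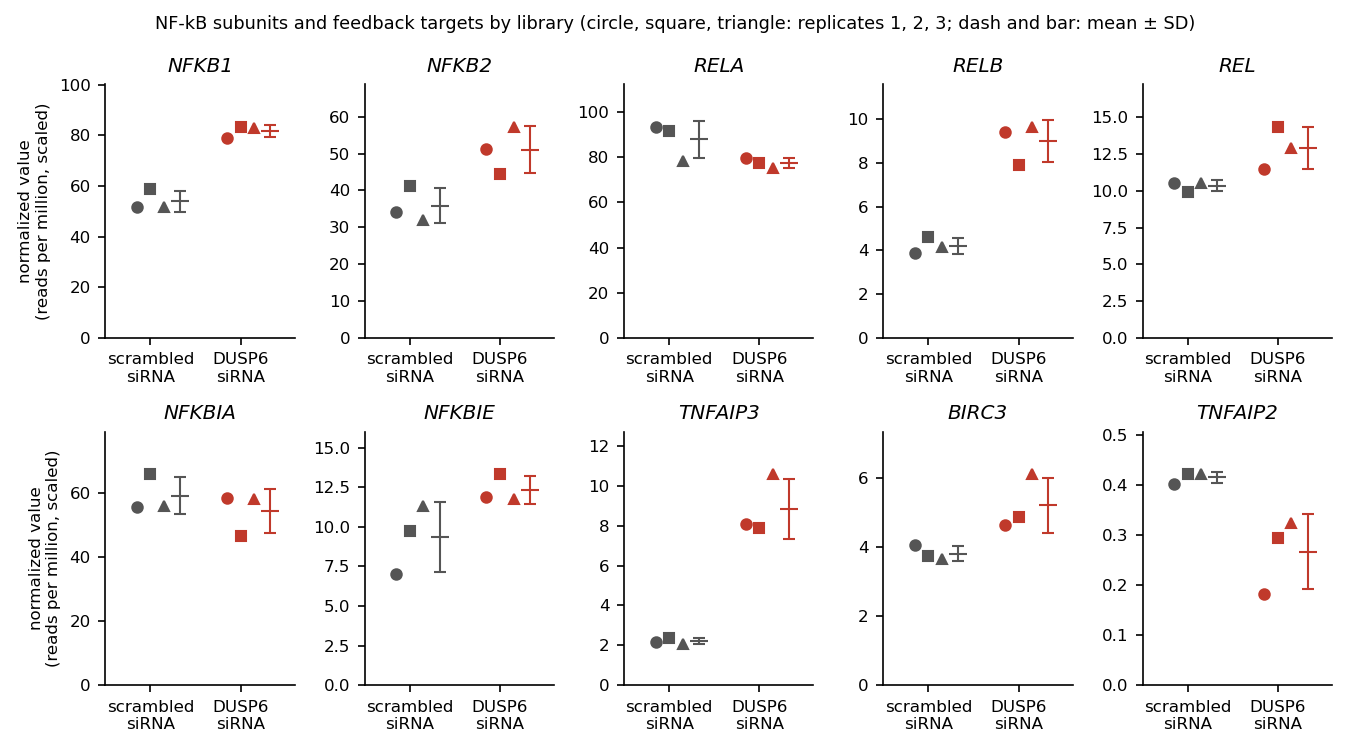
Normalized value of each of the 10 genes in every library, on a linear axis that starts at 0 and differs between panels, with scrambled siRNA in grey and *DUSP6* siRNA in red. Circles, squares and triangles are replicates 1, 2 and 3, and the dash with its bar is the mean ± SD (n = 3). The groups stand apart upwards in 7 panels, overlap for *RELA* and *NFKBIA*, and stand apart downwards for *TNFAIP2*.

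*NFKB1* (Entrez gene 4790, chromosome 4, 102501359 to 102617302) and *NFKB2* (Entrez gene 4791, chromosome 10, 102394110 to 102402529) encode precursors that are cut to DNA-binding subunits and that act as inhibitors while uncut. *NFKB1* stood at 51.5, 58.8 and 51.6 in scrambled siRNA replicates 1 to 3 and at 79.0, 83.5 and 83.0 in *DUSP6* siRNA replicates 1 to 3. The groups lay well apart, and the mean rose from 54.0 ± 4.17 to 81.8 ± 2.43 (SD, n = 3 each), or 0.59 ± 0.09 (SE) on the log2 scale (limma, adjusted p = 0.000992). *NFKB1* was called in every alternative run. For *NFKB2* the scrambled siRNA libraries held 34.3, 41.2 and 32.0 and the *DUSP6* siRNA libraries 51.2, 44.5 and 57.3. The gap was narrow, since *DUSP6* siRNA replicate 2 stood only a little above scrambled siRNA replicate 2. The mean of *NFKB2* rose from 35.8 ± 4.77 to 51.0 ± 6.38 (SD, n = 3 each), which is 0.50 ± 0.13 (SE) as a log2 fold change (limma, adjusted p = 0.0125). Without *DUSP6* siRNA replicate 3 its fold change was 0.41 and the call was lost (limma adjusted p = 0.0637).

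The other 3 subunits carry the domains that activate transcription. *RELA* (Entrez gene 5970, chromosome 11, 65653601 to 65663857), the main activating subunit of the canonical arm, had values of 93.6, 91.8 and 78.5 with scrambled siRNA and 79.7, 77.3 and 75.3 with *DUSP6* siRNA. Scrambled siRNA replicate 3 fell among the *DUSP6* siRNA libraries, and the log2 fold change of -0.18 was not called (standard error 0.10, limma adjusted p = 0.158). Without that library *RELA* was called lower, with a difference of -0.26 on the log2 scale (limma, adjusted p = 0.022). *RELB* (Entrez gene 5971, chromosome 19, 45001464 to 45038192), the partner of the processed *NFKB2* product, was low in scrambled siRNA libraries, at 3.90, 4.62 and 4.13. With *DUSP6* siRNA it reached 9.42, 7.89 and 9.66, so that the lowest of these values was well above the highest control. The mean of *RELB* rose 2.13-fold, from 4.22 ± 0.367 to 8.99 ± 0.961 (SD, n = 3 each), and on the log2(value + 1) scale by 0.94 (standard error 0.12, limma adjusted p = 0.000383). *REL* (Entrez gene 5966, chromosome 2, 60881574 to 60931612), a subunit best known from lymphocytes, had values of 10.6, 9.94 and 10.6 with scrambled siRNA and 11.5, 14.4 and 12.9 with *DUSP6* siRNA. The libraries did not overlap, but the log2 fold change of 0.29 was not called by limma (standard error 0.11, adjusted p = 0.0626) and was called by edgeR at 0.36 (adjusted p = 0.0356).

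*NFKBIA* and *NFKBIE* encode IkB proteins that bind NF-kB dimers and are resynthesized after each round of activation. *NFKBIA* (Entrez gene 4792, chromosome 14, 35401513 to 35404749), a classical early target, stood at 55.8, 66.1 and 56.0 with scrambled siRNA and at 58.7, 46.6 and 58.4 with *DUSP6* siRNA. The groups overlapped, with the highest value in a scrambled and the lowest in a *DUSP6* siRNA library, both replicate 2. Its log2 fold change was -0.12 (standard error 0.12, limma adjusted p = 0.434), and no alternative called it, with adjusted p from 0.32 to 0.942. *NFKBIE* (Entrez gene 4794, chromosome 6, 44258166 to 44265551) had 7.01, 9.77 and 11.3 in the scrambled siRNA libraries and 11.9, 13.4 and 11.8 in the *DUSP6* siRNA libraries. Scrambled siRNA replicate 3 came close to the *DUSP6* siRNA libraries without reaching them. The log2 fold change of *NFKBIE*, 0.39, was not called (standard error 0.16, limma adjusted p = 0.0776), and without scrambled siRNA replicate 3 it was 0.52 and was called (limma adjusted p = 0.0172).

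*TNFAIP3* (Entrez gene 7128, chromosome 6, 137866349 to 137883312) encodes a ubiquitin-editing enzyme that dampens signaling from the receptors to IKK, and it showed the largest change of the 10 genes. Its values were 2.16, 2.36 and 2.07 with scrambled siRNA, or 123 to 172 reads per library, and 8.09, 7.89 and 10.6 with *DUSP6* siRNA, or 400 to 686 reads. Each *DUSP6* siRNA library was more than 3 times as high as any control. The mean rose 4.03-fold, from 2.20 ± 0.146 to 8.86 ± 1.51 (SD, n = 3 each). On the log2(value + 1) scale, which understates changes of low genes, this was 1.62 (standard error 0.13, limma adjusted p = 3.62e-05), and edgeR gave 2.05 (adjusted p = 5.56e-05). *BIRC3* (Entrez gene 330, chromosome 11, 102317484 to 102339403), which encodes a ubiquitin ligase that protects cells from death by tumor necrosis factor, had 4.05, 3.72 and 3.64 with scrambled siRNA and 4.63, 4.85 and 6.10 with *DUSP6* siRNA. The groups did not overlap, but *DUSP6* siRNA replicates 1 and 2 stood only slightly above the controls. The log2 fold change of *BIRC3* was 0.36 (standard error 0.12, limma adjusted p = 0.0401). This call was lost without any 1 of the 6 libraries, with adjusted p of 0.0515, 0.0774 and 0.0627 when scrambled siRNA replicates 1 to 3 were left out and of 0.0579, 0.0724 and 0.186 for *DUSP6* siRNA replicates 1 to 3. It was also lost without a filter (0.115), under quantile normalization (0.157) and with a replicate block (0.0596). *TNFAIP2* (Entrez gene 7127, chromosome 14, 103121469 to 103137439), known as a gene induced by tumor necrosis factor, fell under the filter. It had 0.402, 0.422 and 0.422 with scrambled siRNA and 0.182, 0.293 and 0.324 with *DUSP6* siRNA, from 9 to 35 reads per library. The libraries with *DUSP6* siRNA were all lower, and in a fit without a filter the log2 fold change was -0.16 (standard error 0.05, limma adjusted p = 0.0402).

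In each single gene the two-sided exact permutation test gave p = 0.1 where the groups did not overlap, which is the smallest p that 3 libraries against 3 allow, and p = 0.2 for *RELA* and p = 0.6 for *NFKBIA*. *DUSP6* siRNA replicate 2 had the lowest value of its group for *NFKB2*, *RELB*, *NFKBIA* and *TNFAIP3* and the highest for *NFKB1*, *REL* and *NFKBIE*. The 10 genes did not rise and fall together among the *DUSP6* siRNA libraries.

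Levels were compared between genes only per kilobase of exon, with exon lengths from GENCODE release 44 matched by symbol. Reads had been counted per RefSeq gene, so values and lengths come from different annotations. In scrambled siRNA libraries *NFKBIA* and *RELA* led, at 26.5 ± 2.63 and 26.0 ± 2.44 normalized value per kilobase (SD, n = 3), and these 2 levels overlapped. *NFKB1* followed at 11.9 ± 0.917, *NFKB2* at 9.47 ± 1.26, *NFKBIE* at 3.63 ± 0.846 and *RELB* at 1.86 ± 0.162 (SD, n = 3). The lowest levels per kilobase were those of *REL* at 0.917 ± 0.0314, *BIRC3* at 0.533 ± 0.0303, *TNFAIP3* at 0.452 ± 0.0300 and *TNFAIP2* at 0.0877 ± 0.00244 (SD, n = 3), each without overlap with its neighbor. With *DUSP6* siRNA the level of *TNFAIP3* per kilobase was 1.82 ± 0.311 (SD, n = 3), above *REL* at 1.15 ± 0.127 and *BIRC3* at 0.729 ± 0.111 (SD, n = 3). The order of *TNFAIP3* and *REL* rests on exon lengths of 4.86 and 11.3 kilobases, since their undivided means were 8.86 and 12.9. The other genes kept their order, and only *NFKBIA* and *RELA* overlapped there too.

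Ratios within a library show shifts in the balance of subunits and a scaling factor per library cancels in them. The ratio of *RELB* to *RELA* was 0.0416, 0.0503 and 0.0526 with scrambled siRNA and 0.118, 0.102 and 0.128 with *DUSP6* siRNA. This ratio differed by 1.27 on the log2 scale, and the groups stood apart. *REL* to *RELA* went from 0.119 ± 0.0140 to 0.167 ± 0.0211 (SD, n = 3 each), a log2 difference of 0.50, also without overlap. For both ratios the two-sided exact permutation test gave p = 0.1, the smallest it can give, and 0.25 after adjustment over the 5 ratios computed. The ratio of *NFKB2* to *NFKB1* was 0.662 ± 0.0400 (SD, n = 3) and 0.624 ± 0.0813 (SD, n = 3), with overlap (exact permutation p = 0.6, adjusted 0.6). *NFKBIE* to *NFKBIA* differed by 0.55 on the log2 scale, with overlap (exact permutation p = 0.2, adjusted 0.333). *NFKBIA* to *RELA* differed by 0.06, less than the spread between libraries (exact permutation p = 0.5, adjusted 0.6).

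**Figure D3:**
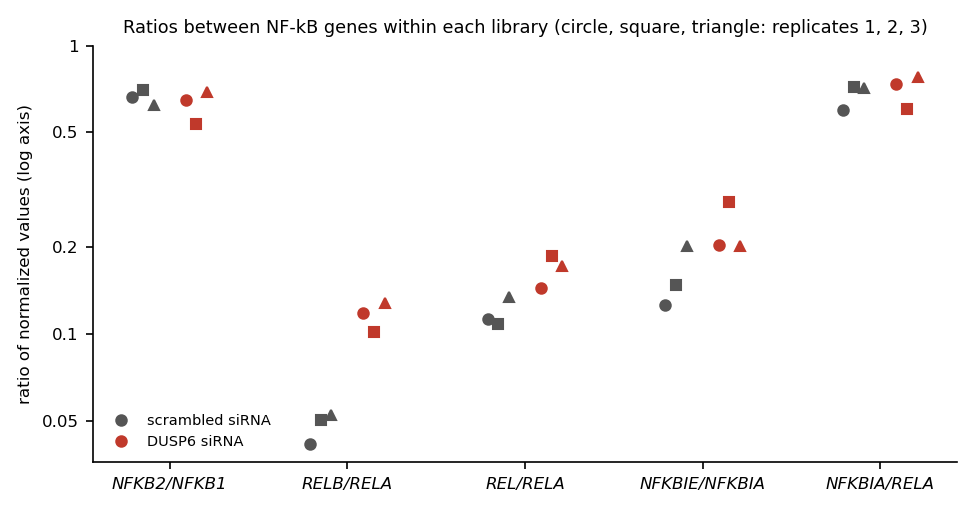
Ratios of normalized values between pairs of NF-kB genes in each library on a log axis, with scrambled siRNA in grey and *DUSP6* siRNA in red, and circles, squares and triangles for replicates 1, 2 and 3. *RELB* to *RELA* lies at 0.0416 to 0.0526 in grey and 0.102 to 0.128 in red, and *REL* to *RELA* also stands apart, while the other 3 ratios overlap.

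Genes around the subunits were taken from hand-written lists, and the counts below stand against the 19.7% of all genes tested that were called higher and the 24.7% called lower. No list was tested as a list, and nothing is read from counts near these shares. Of 5 genes of nuclear and cytoplasmic IkB proteins and the repressor *NKRF*, 1 rose, 1 fell and 3 were not called, with a median log2 fold change of -0.35. *NFKBIZ*, which encodes a nuclear IkB that helps to switch on secondary targets, rose from 11.9 ± 0.929 to 20.2 ± 4.56 (SD, n = 3 each) (limma adjusted p = 0.0074). *BCL3*, a nuclear IkB that binds dimers of the *NFKB1* and *NFKB2* products, fell from 44.4 ± 6.55 to 20.2 ± 3.38 (SD, n = 3 each), or by 1.10 on the log2 scale (limma, adjusted p = 0.000515).

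Among 8 genes of the IKK complex and related kinases, 2 rose, 1 fell and 5 were not called, and the median log2 fold change was 0.10. *IKBKE*, which encodes a kinase related to IKK, had 27.9, 25.7 and 28.7 with scrambled siRNA and 9.50, 7.08 and 7.65 with *DUSP6* siRNA. Every *DUSP6* siRNA library lay below every control, and *IKBKE* fell by 1.65 ± 0.12 (SE) on the log2 scale (limma, adjusted p = 2.37e-05). *TBK1*, the closest relative of *IKBKE*, went the other way, from 63.0 ± 6.61 to 81.6 ± 4.13 (SD, n = 3 each) (log2 fold change 0.37, limma adjusted p = 0.0165), a call that was lost without *DUSP6* siRNA replicate 2 (0.0725) or 3 (0.0612). *IKBKG*, the regulatory subunit of IKK, had a difference of 0.62 on the log2 scale (limma, adjusted p = 0.00248), but a near-identical pseudogene exists, so its value is uncertain. The catalytic subunits *CHUK* (log2 fold change 0.23, limma adjusted p = 0.134) and *IKBKB* (-0.15, adjusted p = 0.228) were not called.

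The noncanonical arm held 11 genes, of which 7 passed the filter, with 3 higher, 2 lower and 2 not called and a median log2 fold change of 0.14. *BIRC2*, a ubiquitin ligase related to *BIRC3*, rose from 85.2 ± 3.47 to 135 ± 11.1 (SD, n = 3 each), or by 0.65 on the log2 scale (limma, adjusted p = 0.000644). The receptors *TNFRSF12A* (0.44) and *TNFRSF11A* (0.43, or 0.823 with edgeR) rose, and the adaptor *TRAF2* (-0.38) and the lymphotoxin receptor *LTBR* (-0.35) fell, on the log2(value + 1) scale. All 4 of these calls were lost without *DUSP6* siRNA replicate 3, with limma adjusted p of 0.0514, 0.0795, 0.117 and 0.052 in the same order. The calls of *TNFRSF11A* and *TRAF2* were also lost without *DUSP6* siRNA replicate 1 (0.051 and 0.0605), and those of *TRAF2* and *LTBR* without replicate 2 (0.0709 and 0.061). Under quantile normalization *TNFRSF11A*, *TRAF2* and *LTBR* had adjusted p of 0.0603, 0.0664 and 0.0654. With a scrambled siRNA mean of 0.896, *TNFRSF11A* passed the filter only through the *DUSP6* siRNA libraries. *MAP3K14*, the kinase of this arm, was not called (log2 fold change -0.10, limma adjusted p = 0.54).

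Of 25 genes for ligands, receptors and adaptors of the canonical arm, 18 passed the filter, with 5 higher, 4 lower and 9 not called and a median log2 fold change of -0.06. *RNF31* and *RBCK1*, which encode parts of the complex that makes linear ubiquitin chains, rose by 0.95 (limma adjusted p = 0.000163) and 0.45 (adjusted p = 0.018). *SHARPIN*, another part of that complex, was lower in every *DUSP6* siRNA library than in any control but was not called (-0.22, limma adjusted p = 0.0826). *IRAK4* and *MYD88*, which relay interleukin 1 and Toll-like receptor signals, rose by 0.61 each (limma adjusted p = 0.00134 and 0.00345). The call of *RBCK1* was lost without scrambled siRNA replicate 1 (0.059) or *DUSP6* siRNA replicate 1 (0.0795) or 3 (0.0752). The interleukin 1 receptor *IL1R1* fell from 432 ± 122 to 136 ± 17.8 (SD, n = 3 each), which is -1.62 ± 0.20 (SE) as a log2 fold change (limma, adjusted p = 0.000338). *TAB2*, an adaptor that links ubiquitin chains to the kinase *MAP3K7*, had 130, 104 and 103 with scrambled siRNA and 44.8, 41.2 and 43.4 with *DUSP6* siRNA. It fell by 1.35 on the log2 scale (standard error 0.11, limma adjusted p = 3.83e-05). The other called genes of this list were *TRAF5* (-0.79, limma adjusted p = 0.0118) and the tumor necrosis factor receptor *TNFRSF1A* (-0.55, 0.00184), which fell, and *RIPK1* (0.25, 0.0381), which rose. Whether these calls held without single libraries is not given here. The ligand gene *TNF* was under the filter, at 0.364 to 0.387 with scrambled siRNA and 0.0809 to 0.185 with *DUSP6* siRNA.

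Of 12 brakes on the pathway, mainly deubiquitinases and partners of the *TNFAIP3* product, 11 passed the filter, with 2 higher, 0 lower and 9 not called. *CYLD*, a deubiquitinase, rose by 0.62 on the log2(value + 1) scale (limma adjusted p = 0.00114). *TRAF1* rose by 0.46 on that scale (limma adjusted p = 0.0113) and by 0.774 with edgeR. The limma call of *TRAF1* was lost without *DUSP6* siRNA replicate 1 (0.0576). *TNIP1*, a partner of *TNFAIP3*, had a log2 fold change of -0.35 and was not called (limma adjusted p = 0.0516).

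Of 25 other widely cited targets, 21 were in the table and 13 passed the filter, with 5 higher, 4 lower and 4 not called and a median log2 fold change of 0.15. The chemokine gene *CCL5* went from 0.878, 0.422 and 0.434 to 42.6, 31.2 and 45.7, the largest change on these lists. Its difference was 4.69 on the log2(value + 1) scale (limma, adjusted p = 4.29e-07), which understates changes of low genes. With edgeR it was 6.14 (adjusted p = 3.89e-06). The scrambled siRNA mean of *CCL5* was 0.578, so it passed the filter only through the *DUSP6* siRNA libraries. *IRF1*, a transcription factor, rose from 7.34 ± 0.239 to 38.7 ± 5.99 (SD, n = 3 each) (limma adjusted p = 5.41e-06), but 15.4% of its exons overlap those of *IRF1-AS1*, so its value is uncertain. Both genes are also known as interferon targets. *CD83* (0.58, or 0.955 with edgeR) and the adhesion molecule *ICAM1* (0.48, or 0.546 with edgeR) rose on the log2(value + 1) scale. The survival gene *BCL2L1* fell from 161 ± 15.2 to 77.7 ± 2.17 (SD, n = 3 each) (limma adjusted p = 6.46e-05), and *IER3* fell by 0.47 on the log2 scale (adjusted p = 0.0213). The other called targets were *CFLAR* (-0.47, limma adjusted p = 0.0091) and *SOD2* (-0.40, 0.0218), which fell, and *XIAP* (0.39, 0.0145), which rose. Whether these calls held without single libraries is not given here. The call of *ICAM1* was lost without *DUSP6* siRNA replicate 2 (0.0581) or 3 (0.0644), and that of *IER3* without scrambled siRNA replicate 1 (0.0632) or *DUSP6* siRNA replicate 2 (0.0686) and under quantile normalization (0.0732). The chemokine gene *CXCL8* had values of 1.70, 0.996 and 1.42 with scrambled siRNA and 1.62, 0.966 and 2.44 with *DUSP6* siRNA, which overlapped. *IL6*, under the filter, was at 0.115 to 0.223 with scrambled siRNA and 0.281 to 0.647 with *DUSP6* siRNA, from 6 to 38 reads per library. *CCL2*, also under the filter, went the other way, from 0.249 to 0.461 with scrambled siRNA to 0.0809 or less with *DUSP6* siRNA. It had 1 to 31 reads per library. Fitted without a filter, the log2 fold change was 0.36 for *IL6* (limma adjusted p = 0.0292) and -0.34 for *CCL2* (limma adjusted p = 0.00614).

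**Figure D4:**
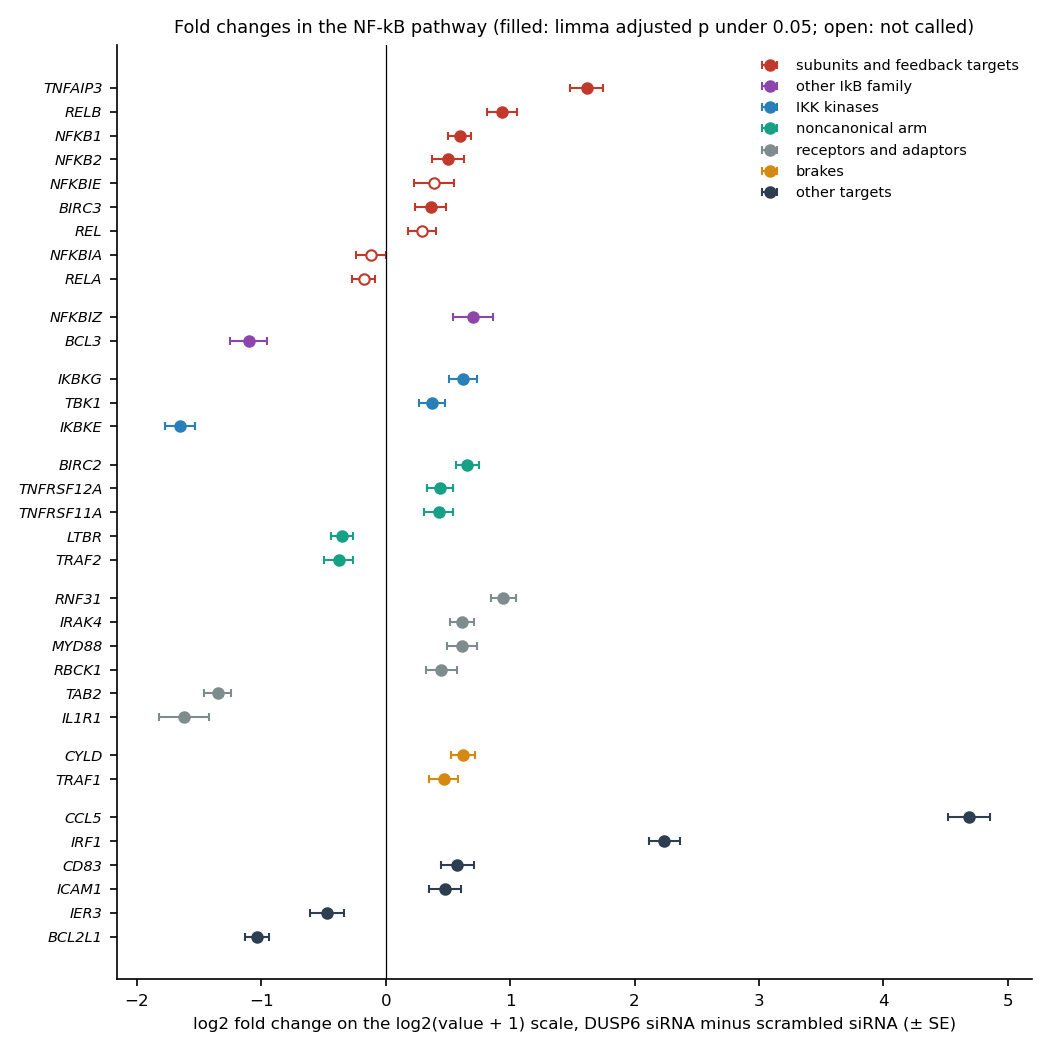
Log2 fold changes of the 9 tested NF-kB genes and of named pathway genes on the log2(value + 1) scale, *DUSP6* siRNA minus scrambled siRNA, with standard errors as bars and 1 color per list. Filled points passed an adjusted p under 0.05 in limma, and open points did not. Pathway genes outside the 9 were drawn only if called and among the largest changes of their list. Uncalled ones such as *CHUK* and *IKBKB* are therefore absent, and every open point is among the 9. *CCL5* at 4.69 and *IRF1* at 2.24 lie farthest to the right, *TNFAIP3* at 1.62 leads the NF-kB genes, and *IKBKE* at -1.65 and *IL1R1* at -1.62 lie farthest to the left.

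Interferon-induced genes moved in the same libraries. Of 19 such genes 18 passed the filter, all 18 rose, and their median log2 fold change was 5.62. *MX1*, *OAS2*, *IFI44L* and *CMPK2* had scrambled siRNA means of 0.571, 0.919, 0.317 and 0.374. They passed the filter only through the *DUSP6* siRNA libraries, so a call of lower was not open to them. The summed value of the 19 was 146 to 225 with scrambled siRNA and 4853 to 6043 with *DUSP6* siRNA. *IFIT1* alone went from 6.99 ± 4.85 to 1042 ± 55.2 (SD, n = 3 each). *TLR3*, a receptor for double-stranded RNA, was under the filter. It was at 0.0192 to 0.0595 (1 to 4 reads) with scrambled siRNA and at 0.465 to 0.865 (30 to 56 reads) with *DUSP6* siRNA. Fitted without a filter, the log2 fold change of *TLR3* was 0.66 (limma adjusted p = 0.00177). The part of the interferon-induced genes in the changes of the NF-kB genes was not tested. An effect of the siRNAs themselves and of the loss of *DUSP6* cannot be told apart.

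The genes whose levels over the 6 libraries were most like those of *TNFAIP3*, outside the lists, were *NR4A3* (Pearson r = 0.997 on log2(value + 1)), *APOL3* (r = 0.996) and *HLA-DMA* (r = 0.995). These r values describe 6 libraries that fall into 2 groups, and any gene that differs between the groups with little spread comes close to them. *APOL3* rose from 0.406 ± 0.0406 to 9.52 ± 1.69 (SD, n = 3 each), and *NR4A3* from 0.720 ± 0.129 to 5.25 ± 0.838 (SD, n = 3 each). Both genes passed the filter only through the *DUSP6* siRNA libraries.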

How the data were processed

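Libraries came from a stranded mRNA kit. With Rsubread the authors mapped reads on hg38, counted them per RefSeq gene (at the package's defaults, which ignore strand, so reads of a gene and of an overlapping antisense gene cannot be told apart) and deposited 1 normalized signal value per gene and library. Per the labels, bcl2fastq and edgeR were also used. Within 0.001 reads, 100% of values were whole reads times 1 step per library, and the steps carry the factors of edgeR's TMM method, with the 3 other methods tried differing by at least 0.0103. So depth was already adjusted for, and 1 read was worth 0.0121 to 0.0202.

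limma 3.58.1 in R 4.3.3 (lmFit, eBayes with a trend) was run on log2(value + 1) over genes with a mean of at least 1, with Benjamini-Hochberg adjustment. As an alternative, recovered reads were tested with quasi-likelihood F-tests in edgeR 4.0.16. Fits were tested on simulated counts in which all genes shared 1 dispersion and few genes changed. These libraries differ from that setting, so the simulation lends no support to single calls. The members and lists were chosen with earlier results of these data known. Named were all members, *DUSP6*, *IFIT1*, up to 4 called genes per list in the more frequent direction and 2 in the other, and the 3 genes most like the member that changed most. *CHUK*, *IKBKB*, *MAP3K14*, *TNF*, *TNIP1*, *CXCL8*, *IL6*, *CCL2* and *TLR3* and the markers were chosen after their values were seen. The same holds for *SHARPIN*, *TNFRSF1A*, *TRAF5*, *RIPK1*, *XIAP*, *CFLAR*, *SOD2*, *MX1*, *OAS2*, *IFI44L* and *CMPK2*. Positions are RefSeq's on GRCh38.p14, matched for 22359 of 22807 gene IDs. Genes with over 5% of their exons shared with a neighbor are given as uncertain. Same-numbered libraries of the 2 groups did not deviate together, so they were not paired. The study's BT474 libraries were not analysed here.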

Additional observations from a re-analysis of the deposited data

How the results depend on the processing

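Alternatives to each fit were quantile normalization, median-of-ratios rescaling, pseudocount 0.1, filters of 0 or 10 on the mean, eBayes with no trend, blocking by replicate, edgeR, and fits that each left out 1 library. The number of NF-kB genes called higher, 5, was 2 with a mean value of at least 10, where only 6 of the genes were tested, and ranged from 3 to 5 when 1 library was left out. The number called lower, 0, was 1 without a filter (*TNFAIP2*) and ranged from 0 to 1 when 1 library was left out, the 1 being *RELA* without scrambled siRNA replicate 3. Over all genes, 2540 were higher, against 1639 with a mean value of at least 10, where fewer genes were tested, and 1574 without *DUSP6* siRNA replicate 2. Leaving out a library gave from 1574 to 3183 (without scrambled siRNA replicate 3). That library stood farthest from the other controls. A chi-square of recovered reads per degree of freedom, which also grows with depth, was 257 and 208 to replicates 1 and 2, and 83.3 between those. Its *IFIT1* value was 12.6, against 4.58 and 3.81 in scrambled siRNA replicates 1 and 2. Under quantile normalization the median log2 fold change of all genes was 0.02 and that of the 9 NF-kB genes 0.33, and the log2 difference in the ratio of *RELB* to *RELA* was 1.05 instead of 1.27. The cause was not tested. With a replicate block, 4 of the NF-kB genes were higher, and the correlations of same-numbered libraries were 0.005, 0.087 and -0.076, so that the numbers do not pair them. The fold change of *DUSP6* kept its direction and call in all 14 alternatives. Of the values for single named genes under the alternatives, 421 kept their side of the threshold, 32 lost a call, 3 gained a call and none turned direction among called genes. For *TNFAIP2*, with at most 35 reads per library, depth limits the precision.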
